A study of Mus musculus with 10 samples.

Results

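Histones are the proteins that package DNA. Core histones H2A, H2B, H3 and H4 form the spool of the nucleosome, and linker histone H1 binds the DNA that enters and leaves it. Most histone genes lie in clusters, are transcribed during S phase and give messages that end in a stem-loop instead of a poly(A) tail. Replacement histones, such as those of H1f10 and the H2A.Z genes, are made also outside S phase, from polyadenylated messages. The set described here holds 10 mouse histone genes: the linker histones H1f2, H1f10 and H1f7, the H3 genes H3c11, H3c4 and H3c7, the H2B genes H2bc22, H2bc18 and H2bc21, and the H2A gene H2ac19. They are 10 of 18193 genes that have at least 1 probe set of their own on the array, and 15 of its 45101 probe sets name 1 of them and no other gene. The genes were chosen by name, with the difference between the groups already known. Their changes are therefore given as descriptions, and nothing is supported with them. Where the threshold of a test is named for the changes of these genes, it too describes the choice.

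RNA came from BMEL cells, bipotential liver progenitors of the mouse embryo grown as a line. Of 10 arrays, 5 carry RNA of cells given an LNA (locked nucleic acid) oligo against miR-30a, and 5 RNA of cells given a scrambled oligo. Oligofectamine was the carrier in both groups, which are called antisense and scrambled here. Nothing in the labels says that replicates are separate cultures, so the p-values cover no more than the variation among these arrays, part or all of which may be technical. The comparison asks which transcripts differ when this microRNA is targeted. Amplification and biotin labelling used MessageAmp Premier chemistry, which primes on poly(A) tails, and histone messages that end in a stem-loop lack such a tail. The values of clustered histone genes are therefore not a measure of their total message. Whether the share of messages with a tail differed between the groups was not tested. Array medians lay between 5.21 and 5.24 on the log2 scale. All 12 hepatoblast and epithelial markers examined were above the filter level of 4.558, the level under which 40% of probe sets lie. Of other cell types 5 of 6 mesenchymal, 3 of 6 endothelial, 4 of 6 blood and macrophage and 1 of 6 male germ cell markers were above it. Some markers lay close to this level, so passing it does not establish expression. Alb averaged 4.70 in antisense and 4.73 in scrambled arrays, and the mesenchymal marker Col1a2 4.73 and 4.81. Of all these markers 1 passed limma's test: the macrophage marker Cd68 rose by 0.39 (SE 0.072, limma adjusted p = 0.0176), at 5.86 ± 0.11 in antisense and 5.47 ± 0.15 in scrambled arrays (SD, n = 5 each), without overlap. The mean of the 4 blood and macrophage markers ran from 5.38 to 5.50 in antisense and from 5.25 to 5.44 in scrambled arrays, and the defining markers Ptprc and Adgre1 were under the filter level. Sox9, a marker of bile duct and progenitor cells, also did not overlap, at 7.36 ± 0.061 in antisense and 7.19 ± 0.047 in scrambled arrays (SD, n = 5 each), a change of 0.17 (limma adjusted p = 0.0662). The mean of the 12 hepatoblast and epithelial markers ran from 9.20 to 9.26 in antisense and from 9.20 to 9.27 in scrambled arrays. The part of these markers in the histone differences was not tested. In RNA from whole cultures, fewer cells with a message and less of it per cell cannot be told apart.

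The oligonucleotide is directed at miR-30a, whose mature 5p strand is shown with its seed, bases 2 to 8, in capitals, because the seed is the part that pairs with target messages (RefSeq, GRCm38.p6, chr1:23272274-23272295, plus strand).
mmu-miR-30a-5p: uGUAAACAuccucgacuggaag
Other mouse microRNAs carry this seed too, among them miR-30c-5p, miR-30e-5p and miR-384-5p in the table used here, which does not hold every microRNA. The labels do not say whether the oligonucleotide reaches them.

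Histone genes of a cluster share promoter elements, so the 250 bases before the start of transcription are shown for the 4 genes whose antisense arrays all lay below all scrambled arrays. The sequences are from RefSeq (GRCm38.p6). Capitals mark motifs, searched on both strands, where matches may overlap. The first is the TATA box in its form TATAAA. Another form of that box, spelled TATATA, was added after the sequences had been read. The others are the CCAAT box and the octamer, spelled ATTTGCAT as a whole.
H1f2, chr13:23738557-23738806, plus strand: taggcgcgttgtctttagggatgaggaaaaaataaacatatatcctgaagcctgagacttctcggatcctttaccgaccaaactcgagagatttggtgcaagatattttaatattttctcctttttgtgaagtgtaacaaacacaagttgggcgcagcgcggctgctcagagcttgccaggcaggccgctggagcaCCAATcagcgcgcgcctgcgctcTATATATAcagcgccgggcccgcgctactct
H1f10, chr6:87981483-87981732, minus strand: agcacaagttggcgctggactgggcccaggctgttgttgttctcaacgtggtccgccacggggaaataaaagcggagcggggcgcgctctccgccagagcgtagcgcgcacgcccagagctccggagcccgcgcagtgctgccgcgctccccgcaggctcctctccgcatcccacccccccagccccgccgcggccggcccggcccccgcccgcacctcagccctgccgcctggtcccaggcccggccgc
H3c11, chr13:21783398-21783647, minus strand: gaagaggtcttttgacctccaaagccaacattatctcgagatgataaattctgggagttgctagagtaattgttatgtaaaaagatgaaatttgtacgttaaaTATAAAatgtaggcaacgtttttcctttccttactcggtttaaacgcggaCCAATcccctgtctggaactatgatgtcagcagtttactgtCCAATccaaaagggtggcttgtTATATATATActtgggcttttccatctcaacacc
H2bc18, chr3:96269450-96269699, plus strand: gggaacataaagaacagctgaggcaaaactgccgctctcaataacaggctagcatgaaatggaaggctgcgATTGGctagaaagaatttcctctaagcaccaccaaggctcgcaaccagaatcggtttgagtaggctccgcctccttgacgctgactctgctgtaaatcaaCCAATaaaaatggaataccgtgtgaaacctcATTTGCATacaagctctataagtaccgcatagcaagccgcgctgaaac

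H1f2 holds CCAAT 54 to 50 bases and an overlapping run of TATATA 31 to 24 bases before its start. H3c11 holds CCAAT at 97 to 93 and again at 56 to 52 bases, a TATATA run 34 to 25 bases before its start and TATAAA farther off, at 147 to 142 bases. H2bc18 holds CCAAT at 79 to 75 bases, the same motif on the other strand at 179 to 175 bases, and the octamer, an element known from H2B promoters, at 48 to 41 bases. H3c4, whose groups overlapped, has a layout close to that of H3c11, with CCAAT at 90 to 86 and 56 to 52 bases and a TATATA run 30 to 23 bases before its start. H1f10, the replacement linker histone, holds none of these letter strings in this window. The table had promoters for 8 of the 10 genes. CCAAT was in 6 of these 8 and in 33.8% of all 32851 promoter windows of the same length, TATATA in 3 (H1f2, H3c11 and H3c4) and in 5.25%, TATAAA in 3 and in 12.4%, and the octamer in 1 and in 1.6%. TATATA was added after sequences of the set had been read, so its share among them describes that choice. A match is a description of the letters and not a bound site.

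On chromosome 13 lie 5 genes of the set (H3c11, H2bc22, H3c7, H3c4 and H1f2), and 3 lie on chromosome 3 (H2bc21, H2ac19 and H2bc18), while H1f10 is on chromosome 6 and H1f7 on chromosome 15. In RefSeq (GRCm38.p6) only H2ac22 lies between H3c11 and H2bc22, and only H3c15 between H2bc21 and H2ac19.

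H1f2 encodes linker histone H1.2. Its brightest probe set (1416101_a_at) had log2 values of 10.78, 10.77, 10.83, 10.69 and 10.82 in antisense arrays 1 to 5, against 11.01, 11.06, 11.05, 11.14 and 11.09 in scrambled arrays 1 to 5. The groups did not overlap, and the means were 10.78 ± 0.052 (SD, n = 5) in antisense and 11.07 ± 0.050 (SD, n = 5) in scrambled arrays. The log2 change, antisense minus scrambled, was -0.29 with a standard error of 0.046, which is 1.23-fold lower. The second probe set (1436994_a_at) averaged 9.19 ± 0.042 in antisense and 9.42 ± 0.069 in scrambled arrays (SD, n = 5 each), again without overlap, a change of -0.23 (SE 0.048). The third and dimmest (1438204_at) averaged 5.01 ± 0.072 in antisense and 5.04 ± 0.089 in scrambled arrays, so its change of -0.03 (SE 0.055) lay within the spread. With the mean of the 3 probe sets the change of H1f2 was -0.19.

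H1f10 encodes H1x, a linker histone made also outside S phase. It has 1 probe set (1436517_at), with log2 values of 7.66, 7.65, 7.62, 7.65 and 7.65 in antisense arrays, against 7.93, 7.86, 7.75, 7.85 and 7.70 in scrambled arrays. The antisense values were nearly level (SD 0.015, n = 5) while the scrambled values spread more (SD 0.091, n = 5), and the lowest scrambled array, number 5, was still above every antisense array. The change was -0.17 (SE 0.050), or 1.13-fold lower.

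H1f7 encodes a linker histone known from mouse spermatids. Its brightest probe set (1430181_at) had 5.53, 5.21, 5.51, 5.53 and 5.38 in antisense arrays, against 5.31, 5.65, 5.36, 5.48 and 5.57 in scrambled arrays. The groups overlapped throughout, with a change of -0.04 (SE 0.079). Its second probe set (1441954_s_at) was under the filter level, at 3.21 ± 0.23 in antisense and 3.14 ± 0.087 in scrambled arrays (SD, n = 5 each). Of the male germ cell markers, Prm2, Tnp1, Tnp2, Acrv1 and Ddx4 were also under it, and the protamine gene Prm1 was at 6.41 or above in every array.

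**Figure D1:**
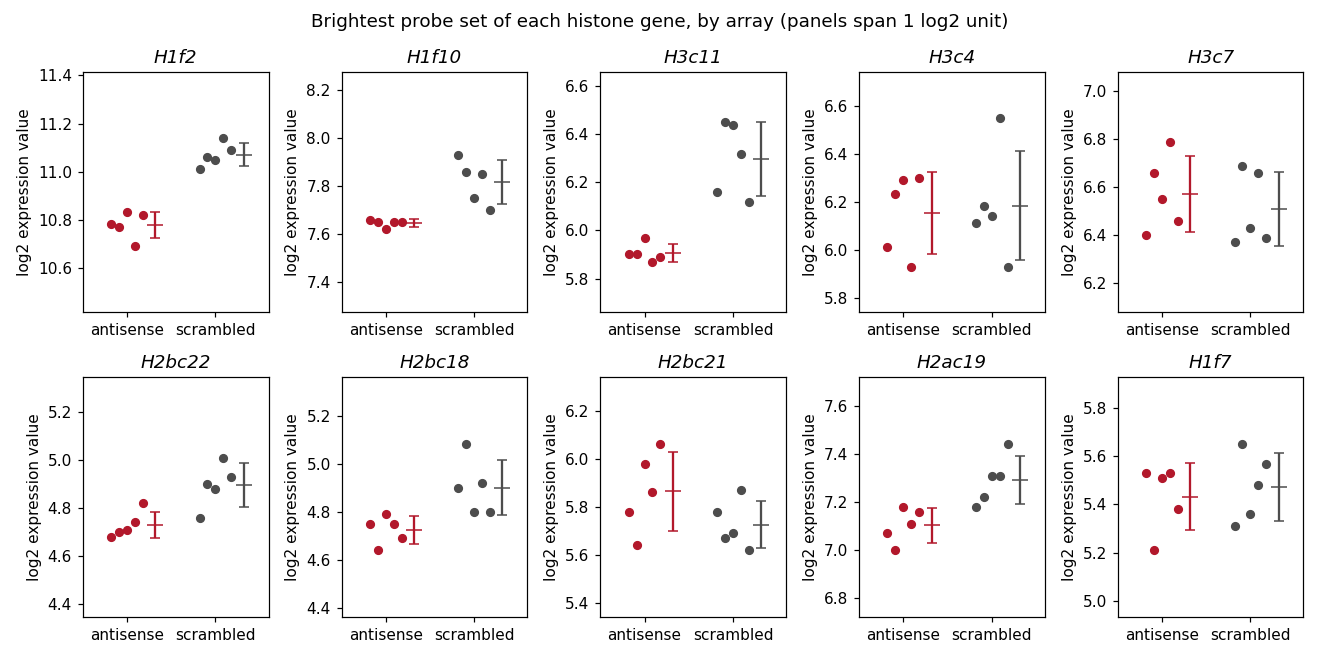
Log2 expression value of the brightest probe set of each of the 10 histone genes in the 5 antisense arrays (red, left) and the 5 scrambled arrays (grey, right), with the mean and SD beside the points and each panel spanning 1 log2 unit. The antisense arrays lie wholly below the scrambled arrays for H1f2, H1f10, H3c11 and H2bc18, while H3c4, H3c7, H2bc21 and H1f7 overlap broadly.

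H3c11, 1 of the clustered H3 genes, had the widest difference of the set. Its only probe set (1443475_at) had 5.90, 5.90, 5.97, 5.87 and 5.89 in antisense arrays, against 6.16, 6.45, 6.44, 6.32 and 6.12 in scrambled arrays. Every antisense array was lower than every scrambled array, of which numbers 1 and 5 were nearest. The means were 5.91 ± 0.037 (SD, n = 5) in antisense and 6.30 ± 0.15 (SD, n = 5) in scrambled arrays, a change of -0.39 (SE 0.067), or 1.31-fold lower.

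The other two H3 genes did not share this difference. H3c4 (1453573_at) had 6.01, 6.23, 6.29, 5.93 and 6.30 in antisense arrays, against 6.11, 6.18, 6.14, 6.55 and 5.93 in scrambled arrays. Its highest and its lowest scrambled value enclosed nearly all antisense values, and the change was -0.03 (SE 0.11). H3c7 (1431231_at) had 6.40, 6.66, 6.55, 6.79 and 6.46 in antisense arrays, against 6.37, 6.69, 6.43, 6.66 and 6.39 in scrambled arrays. Arrays with the same replicate number lay close together for H3c7, and its change was 0.06 (SE 0.085).

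The H2B genes H2bc22 and H2bc18 were dim, not far above the filter level of 4.558. H2bc22 (1427762_x_at) had 4.68, 4.70, 4.71, 4.74 and 4.82 in antisense arrays, against 4.76, 4.90, 4.88, 5.01 and 4.93 in scrambled arrays. Scrambled array 1 fell among the antisense values, and the change was -0.17 (SE 0.053). H2bc18 (1425868_at) had 4.75, 4.64, 4.79, 4.75 and 4.69 in antisense arrays, against 4.90, 5.08, 4.80, 4.92 and 4.80 in scrambled arrays. These groups did not overlap, but only narrowly, and the change was -0.18 (SE 0.059), or 1.13-fold lower. H2B coding sequences are nearly identical between genes, and the suffix of 1427762_x_at marks probes shared with other transcripts, so the signal of H2bc22 may include other H2B messages.

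H2bc21 encodes the H2B variant studied in mouse olfactory neurons as H2BE. Its brightest probe set (1447854_s_at) had 5.78, 5.64, 5.98, 5.86 and 6.06 in antisense arrays, against 5.78, 5.67, 5.69, 5.87 and 5.62 in scrambled arrays. Antisense arrays 3 and 5 were above all scrambled arrays and the others were among them, with a change of 0.14 (SE 0.077). The second probe set (1455095_at), under the filter level, had a change of -0.05 (SE 0.062), so the sign for H2bc21 depends on the probe set. The suffix of 1447854_s_at also marks probes shared with other transcripts, so the signal of the brightest may include other messages.

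H2ac19, an H2A gene of the chromosome 3 cluster, was lower on both of its probe sets. The suffix _x_at of the brightest again marks probes shared with other transcripts, so its signal may include other messages. The brightest (1418367_x_at) had 7.07, 7.0, 7.18, 7.11 and 7.16 in antisense arrays, against 7.18, 7.22, 7.31, 7.31 and 7.44 in scrambled arrays. Antisense array 3 overlapped the lowest scrambled value, and the change was -0.18 (SE 0.058), or 1.14-fold lower. The second (1418366_at) averaged 6.85 ± 0.097 in antisense and 7.09 ± 0.14 in scrambled arrays (SD, n = 5 each), a change of -0.24 (SE 0.070), with 2 antisense arrays inside the scrambled range.

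In differences between arrays of the same replicate number (antisense minus scrambled), H1f2, H1f10, H3c11, H2bc22, H2bc18 and H2ac19 lay below 0 in each of the 5 pairs, which held for 6.66% of all genes tested. For H1f2 the differences ran from -0.45 (number 4) to -0.22 (number 3), for H3c11 from -0.54 (number 2) to -0.22 (number 5), and for H2ac19 from -0.28 (number 5) to -0.11 (number 1). H3c4 had the widest run, from -0.63 (number 4) to 0.37 (number 5). H3c7 was lower in the antisense array of number 2 alone, and H2bc21 was at 0.29 and 0.43 in numbers 3 and 5 and between -0.03 and 0.00 in the others.

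**Figure D2:**
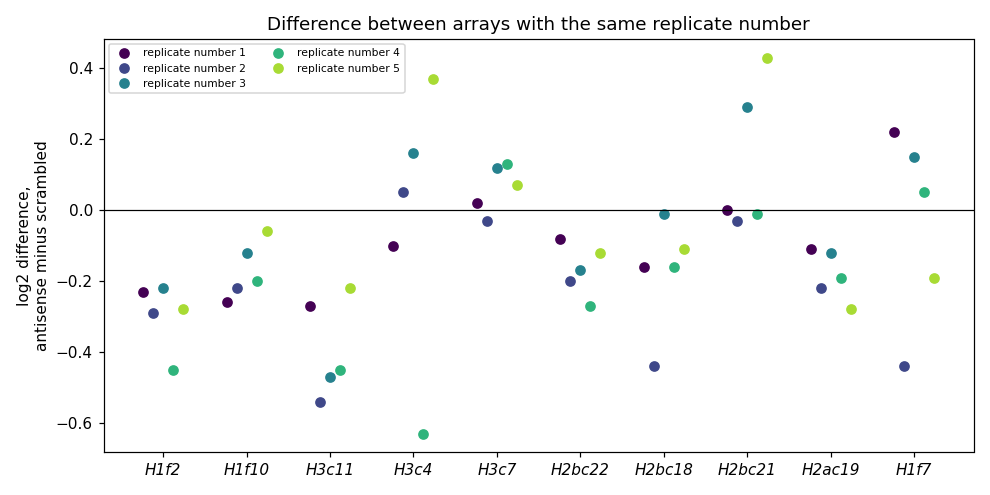
Log2 difference, antisense minus scrambled, between the 2 arrays that carry the same replicate number, for the brightest probe set of each histone gene, with a colour for each of the 5 numbers. All 5 points lie below 0 for H1f2, H1f10, H3c11, H2bc22, H2bc18 and H2ac19, and H3c4 runs from -0.63 to 0.37.

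In numbers, 8 of the 10 genes and 12 of the 15 probe sets had a change below 0, and the median over the 10 genes was -0.17, beside a median of 0.01 over all 12634 genes tested. All 10 genes were above the filter level, as were 13 of the 15 probe sets. The groups did not overlap, with antisense lower, for 4 of the 10 genes and 1.18% of all genes. With antisense higher, this held for none of the 10 and for 2.74% of all genes. Of the 15 probe sets, 5 did not overlap and were lower, beside 0.906% of all probe sets, and none was higher, beside 1.42%. In limma's fit over all genes, H1f2 and H3c11 were past an adjusted p of 0.05 and lower, beside 0.372% of all genes, and none was past it and higher, beside 1.16%. With the replicate number as a block H2ac19 was past it too, beside 1.04% of all genes lower and 2% higher. Since this contrast chose the genes, these counts describe the choice.

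Most clustered histone genes have no probe set of their own. Instead, 18 probe sets name several histone genes each, of which 6 name a gene of the set. They count messages of many near-identical genes together, so no change can be given to a single gene. All 18 had a change below 0, from -0.37 to -0.01 with a median of -0.10, where 50% of all 45037 probe sets were below 0. Of the 18, 12 were above the filter level. The lowest changes, -0.37 (1422155_at) and -0.29 (1431658_at), were on probe sets under it. None of the 18 passed limma's test over all probe sets, which 0.0555% of probe sets passed as lower and 0.211% as higher. The lowest adjusted p was 0.138, while 7 of the 18 had an unadjusted p under 0.05 and a lower level, against 4.58% of all probe sets. With the replicate block, which 0.193% of probe sets passed as lower and 0.235% as higher, none passed and 6 had an unadjusted p under 0.05. The 18 overlap in the messages they read and are not independent of each other.

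Among them, the H2B probe set of 3 genes (1418072_at) had 10.42, 10.44, 10.51, 10.56 and 10.55 in antisense arrays, against 10.63, 10.69, 10.70, 10.68 and 10.83 in scrambled arrays. The groups did not overlap, and the change was -0.21 (SE 0.052, limma adjusted p = 0.138). The H2A probe set of 10 genes (1438009_at) was near the top of the scale, with 13.39, 13.40, 13.37, 13.40 and 13.38 in antisense arrays, against 13.49, 13.53, 13.47, 13.51 and 13.41 in scrambled arrays. It too did not overlap, with a change of -0.09 (SE 0.042, limma adjusted p = 0.521). These 2 probe sets name no gene of the set.

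The H2B probe set of 11 genes (1452540_a_at), which includes a gene of the set, had 10.71, 10.68, 10.74, 10.70 and 10.79 in antisense arrays, against 10.76, 10.93, 10.93, 11.05 and 11.02 in scrambled arrays. Scrambled array 1 lay among the antisense arrays, and the change was -0.21 (SE 0.058, limma adjusted p = 0.193). The brightest H4 probe set (1422948_s_at, 13 genes) had 7.62, 7.78, 7.77, 7.91 and 7.82 in antisense arrays, against 7.82, 8.22, 8.02, 8.06 and 8.02 in scrambled arrays. Its change was -0.25 (SE 0.073, limma adjusted p = 0.237), with scrambled array 1 again the lowest of its group. The brightest H3 probe set (1460314_s_at, 12 genes) names all 3 H3 genes of the set, H3c11 among them, and averaged 8.06 over all arrays. Its groups overlapped widely, with a change of -0.08 (SE 0.067). The lowest change of the H3 probe sets, -0.37 (1422155_at, SE 0.12), was on a probe set under the filter level.

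**Figure D3:**
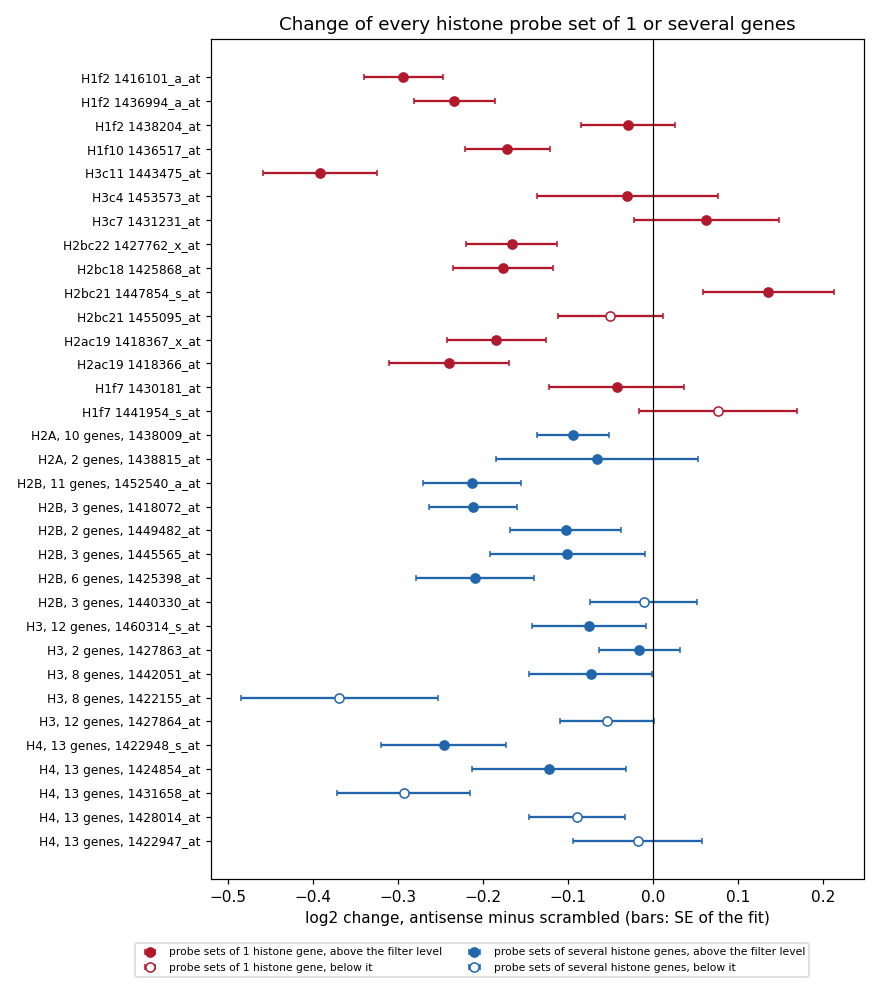
Log2 change, antisense minus scrambled, with the standard error of the fit, for the 15 probe sets of 1 histone gene (red) and the 18 probe sets of several histone genes (blue, by class and number of genes), open where the mean lies under the filter level. H3c11 lies at -0.39 and the brightest H1f2 probe set at -0.29, and all 18 shared probe sets lie between -0.37 and -0.01.

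Histone genes outside the set that have a probe set of their own fall nearly all in the list of replacement and germ line histones. The class of each gene in that list, H2aw among them, was not checked. In the list of replication-dependent histones only H1f4 remained, which was under the filter level (mean 3.24). Of 15 genes outside the set in the replacement and germ line list, 12 were tested. Of these 6 were below 0 and 6 above, and the median change was 0.00. None passed limma's test, while 4 had an unadjusted p under 0.05, all lower. Over all 12634 genes, 569 had an unadjusted p under 0.05 and were lower and 1063 were higher, while 0.372% passed the adjusted threshold as lower and 1.16% as higher. H2aw, which encodes an H2A protein, came nearest: its brightest probe set (1435866_s_at) had 7.06, 7.31, 7.38, 7.35 and 7.26 in antisense arrays, against 7.43, 7.57, 7.58, 7.59 and 7.43 in scrambled arrays. The groups did not overlap, the change was -0.24 (SE 0.062, limma adjusted p = 0.0754), and with the replicate block H2aw fell (limma adjusted p = 0.0176). A second H2aw probe set under the filter level (1455712_at) had a change of -0.12. H2aw therefore has no value in the alternative that leaves out probe sets of suffix _x_at or _s_at, such as 1435866_s_at.

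H2ax, which marks DNA breaks when phosphorylated, had 9.85, 9.98, 9.86, 9.93 and 9.88 in antisense arrays, against 9.91, 10.16, 10.10, 10.14 and 9.93 in scrambled arrays. It was lower in all 5 pairs but overlapped between groups (change -0.15, SE 0.055, limma adjusted p = 0.252). H2az1, which encodes H2A.Z, had changes of -0.12 (limma adjusted p = 0.331) and, on its second probe set, -0.14. The oocyte linker histone H1f8 was at -0.19 and the testis linker histone H1f6 at 0.13, both with overlapping groups of dim values (limma adjusted p = 0.364 and 0.495). The H3.3 genes H3f3a and H3f3b were at 0.02 and 0.06, the centromeric H3 gene Cenpa at 0.02, Macroh2a1 at -0.02, Macroh2a2 at 0.06, H2az2 at -0.06 and H2aj at 0.01, with adjusted p-values from 0.649 to 0.958 in the same limma fit.

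The genes of DNA replication, which most histone genes follow through the cell cycle, showed no difference that passed the test. Of 29 S phase and DNA replication genes tested, 16 were below 0, the median change was 0.00, none passed limma's test in either direction and none had an unadjusted p under 0.05. Their mean log2 value per array was 9.25, 9.38, 9.30, 9.32 and 9.22 in antisense arrays, against 9.26, 9.37, 9.33, 9.31 and 9.18 in scrambled arrays, and the groups overlapped throughout. The helicase subunit genes Mcm2 and Mcm6 were at 0.08 and -0.08 (SE 0.046 and 0.054), Gins2 at 0.08, the clamp loader gene Rfc4 at -0.09 and Ccne2, the cyclin E2 gene, at 0.05 (limma adjusted p from 0.445 to 0.926).

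Of 21 G2 and mitosis genes, 14 were below 0, with a median of -0.02, and none passed limma's test, while Mki67 alone had an unadjusted p under 0.05. Mki67, the proliferation marker Ki-67, averaged 11.43 ± 0.021 in antisense and 11.57 ± 0.083 in scrambled arrays (SD, n = 5 each). It was lower in all 5 pairs, a change of -0.14 (SE 0.043, limma adjusted p = 0.163). The mitotic checkpoint genes Bub1 and Bub1b were at 0.09 and -0.08 and the ubiquitin-conjugating enzyme gene Ube2c at 0.06.

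Of 17 G1 genes 3 rose and none fell in limma's fit, beside 1.16% of all genes higher and 0.372% lower. Mdm2, Ccng1 and Cdkn1a, all p53 targets, rose by 0.42, 0.29 and 0.19 (limma adjusted p = 0.00851, 0.00888 and 0.0254), though the adjusted p of Cdkn1a, the inhibitor of cyclin-dependent kinases, ran up to 0.0723 with 1 array left out and missed 0.05 without antisense array 3, 4 or 5 or scrambled array 2, 3 or 4. The CDK inhibitor gene Cdkn2d was at -0.10. The median of the list was 0.01. Its mean per array, with the genes that rose included, ran from 9.56 to 9.61 in antisense and from 9.51 to 9.54 in scrambled arrays, without overlap.

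The factors that make histone messages also showed no change that passed the test. Of 20 genes of histone transcription and message processing, 11 were below 0, with a median of 0.00. None passed limma's test and 1, Nfyb, had an unadjusted p under 0.05 (change 0.11, limma adjusted p = 0.281). Slbp, which binds the stem-loop of histone messages, averaged 10.41 ± 0.068 in antisense and 10.44 ± 0.084 in scrambled arrays (SD, n = 5 each), a change of -0.03 (SE 0.049, limma adjusted p = 0.853). Npat, the activator of clustered histone genes at S phase entry, was at 0.06 (SE 0.043, limma adjusted p = 0.603). Zfp473, a subunit of the histone message processing complex, was at -0.09, and the transcription factor gene Yy1 at -0.04.

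Of 19 histone chaperone genes, 13 were below 0, with a median of -0.02. None passed limma's test and 1, the histone import receptor gene Ipo4, had an unadjusted p under 0.05 (change 0.10, limma adjusted p = 0.341). Nasp, an H3 and H4 chaperone, was at -0.08, the chromatin assembly factor subunit gene Chaf1b at -0.07 and Cabin1 at 0.07.

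**Figure D4:**
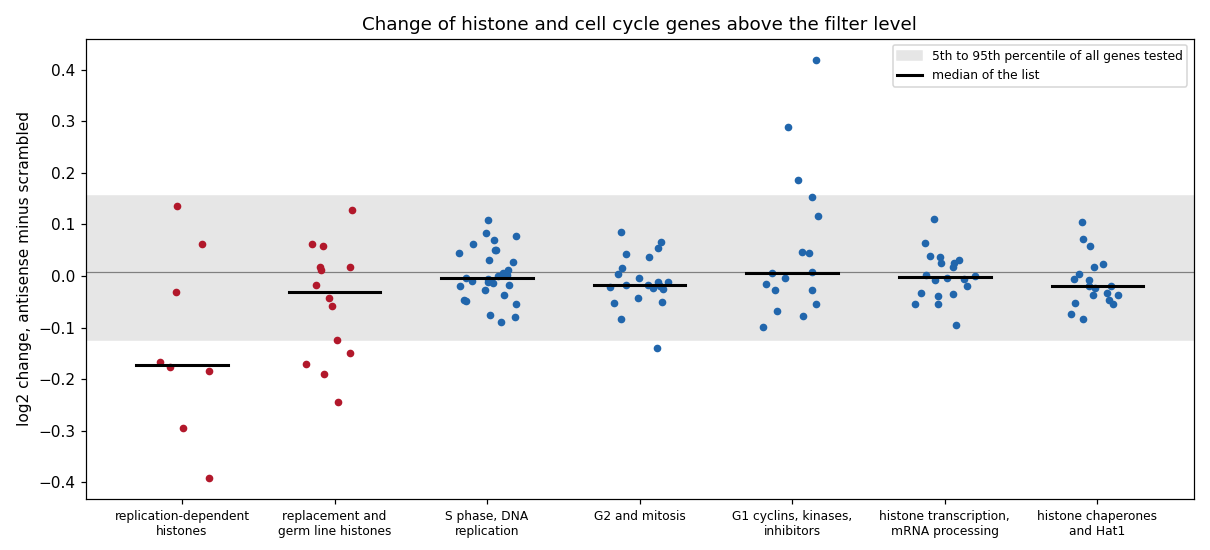
Log2 change, antisense minus scrambled, of each gene above the filter level in 2 histone lists (red) and 5 lists of cell cycle and histone metabolism genes (blue), with the list median as a bar and the 5th to 95th percentile of all genes tested (-0.124 to 0.155) in grey. The replication-dependent histones, all 8 of them chosen genes, have a median of -0.17, and the S phase list stays inside the grey band.

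Apart from the group difference, array-to-array variation of the histone genes was set against the cell cycle lists. For each of the 10 genes, deviations from the group mean were correlated over the 10 arrays with those of the S phase and of the G2 and mitosis list means, 20 relations in all. Pearson's r ran from -0.715 (H2ac19 with the G2 and mitosis list) to 0.758 (H3c11 with the same list). None passed an exact permutation test within groups after Benjamini-Hochberg adjustment (lowest adjusted p = 0.216 for r and 0.292 for Spearman's rho). With the G2 and mitosis list, H3c11 had rho = 0.782 (exact permutation p = 0.0248 for r, adjusted p = 0.216), and its r fell to 0.387 without the 2 arrays farthest from the median. H2ac19 had rho = -0.406 (exact permutation p = 0.0447 for r, adjusted p = 0.223), and r = -0.395 without those 2 arrays. H3c11 had r = 0.705 and rho = 0.661 with the S phase list (exact permutation p = 0.0324 for r, adjusted p = 0.216), and r = 0.564 without the 2 arrays farthest from the median of that list. H3c7 had r = 0.728 and rho = 0.709 (exact permutation p = 0.0303, adjusted p = 0.216), and r = 0.707 without those 2 arrays. For H1f2 r was -0.221 and rho -0.382 (exact permutation p = 0.554, adjusted p = 0.672), and r was 0.0367 without those 2 arrays. The permutations ignore that arrays with the same number may deviate together.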

How the data were processed

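Per the labels, total RNA of 10 samples was hybridised to single-colour arrays. The deposited log2 values, 1 per probe set and array, were used as they stand, and their scale was read from the values (highest 14.1827). How the authors summarised and normalized them is not given in the sources used here. In the platform annotation 34945 probe sets have 1 gene symbol, 932 have several and 9160 are not listed, beside 64 controls. Symbols were looked up by gene identifier (34741 matched). Each gene was represented by its brightest probe set on average, and genes under 4.558, the 40th percentile of probe sets, were left out, which gave 12634 genes. These, and separately all 45037 probe sets, were fitted with limma 3.58.1 in R 4.3.3 (lmFit, eBayes, two-sided), with Benjamini-Hochberg adjustment and a threshold of 0.05. Standard errors of probe sets are from the probe set fit and those of other genes from the gene fit. The procedures were tested on simulated data.

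The named genes are the 10 histone genes, the other histone genes, the 4 members of each other list with the smallest p, and Slbp, Npat, Mki67, Ccne2, Cdkn1a, Mdm2 and Ccng1. The members and lists were chosen with earlier results of these data known. Alternatives were a replicate block, quantile normalization, median centring, other filters, other choices of probe set and leaving out each array. Over genes, the deviations of same-numbered arrays correlated at 0.172, 0.377, 0.112, 0.152 and 0.334 (numbers 1 to 5). Other pairs ran from -0.312 to 0.231, with a mean of -0.0594. Numbers 2 and 5 lay above that range and numbers 1, 3 and 4 within it. The numbers were therefore taken as a possible pairing, used for the replicate block and not in the main fit. This pairing comes from the values and not from the labels. The number of arrays limits the precision. Plots were made in Python 3.11.15 (matplotlib 3.10.9).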

Additional observations from a re-analysis of the deposited data

Results flagged for a closer look

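In 7 of 148 groups of 5 arrays checked, 1 array stood far from the other arrays of its group. Chance gives about 1 in 20 such groups. They were antisense array 2 for H2az2 (10.1), Nasp (9.61) and the H2B probe set 1445565_at (5.22), antisense array 4 for Gins2 (9.21) and Rfc4 (8.83), scrambled array 1 for the H4 probe set 1424854_at (5.90) and scrambled array 3 for the H4 probe set 1422947_at (3.06). None of the probe sets of the 10 histone genes was among them.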

How the results depend on the processing

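Under the replicate block 253 genes were higher and 132 lower, against 146 and 47 without it, and 87 probe sets were lower, against 25. In some alternatives the list of replacement and germ line histones had 1 gene lower, H2aw, whose class was not checked. These were the block (limma adjusted p = 0.0176), quantile normalization (0.0404) and the mean of probe sets (0.0467). H2aw missed the threshold with median centring (0.0929), with a filter at the 60th percentile (0.0538) and without a filter (0.111). With 1 array left out the list had 0 to 1 lower, the 1 being the chosen gene H1f10 without scrambled array 5. The change of H1f2 was -0.186 with the mean of probe sets. Without probe sets of suffix _x_at or _s_at the change of H2bc21 was -0.0503, and H2bc22 and H2aw had no value. Cdkn1a had an adjusted p of 0.0534 without a filter and missed the threshold in 6 of 10 fits with 1 array left out. With 1 array left out, 78 to 160 genes were higher and 14 to 42 lower, and 48 to 81 probe sets were higher and 3 to 41 lower. At most 31 genes were lower without antisense array 2, 3, 4 or 5 or scrambled array 1, 2, 3 or 4. The median change ran from -0.0441 to 0.0046 for the replacement and germ line histones and from -0.0151 to 0.0282 for the G1 genes. The changes of H1f2 (-0.309 to -0.273), H3c11 (-0.437 to -0.355), H1f10, H2bc22, H2bc18 and H2ac19 kept their sign with each array left out, while H3c4 (-0.0940 to 0.0621) and H1f7 (-0.0834 to 0.0120) did not. The cause of these shifts was not tested. Dim probe sets, H2bc22 and H2bc18 among them, limit what their changes show.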
